A study of Oncorhynchus mykiss with 6 samples.

Results

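Lysyl oxidases, actinodins, cytokine-like protein 1, cartilage acidic protein 1 and proteoglycan 4 are secreted proteins of cartilage, fin folds and collagen fibres. Loci named for them were followed in dorsal skin of rainbow trout (Oncorhynchus mykiss). The set was taken from product names, as loci named for an actinodin, proteoglycan 4, cartilage acidic protein, cytokine-like protein 1, protein-lysine 6-oxidase or lysyl oxidase, or carrying the symbol lox, cytl1 or crtac1. This gave 51 of 41818 loci. They are 6 LOX, 2 LOXL1, 4 LOXL2, 2 LOXL3, 3 LOXL4, 2 actinodin, 3 CYTL1, 3 CRTAC1 and 20 proteoglycan 4-like loci, and 6 loci of chondroitin sulfate proteoglycan 4 (CSPG4), a membrane proteoglycan that the text of its name brought in. The set was proposed from the same comparison of these libraries, with 5 loci in the lead, so its values are a description. Counts of calls are given beside those of all tested genes, and no p-value is given for a member.

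Lysyl oxidase (LOX) and the lysyl oxidase-like enzymes (LOXL) are copper-dependent amine oxidases. They oxidise lysine residues of collagen and elastin outside the cell, and the aldehydes formed then crosslink the fibres. Actinodins are structural proteins of the actinotrichia, the unmineralised fibrils that hold up the larval fin fold in zebrafish. CYTL1 and CRTAC1 are secreted proteins known from human and mouse cartilage, and proteoglycan 4, or lubricin, lubricates joint surfaces in mammals.

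RNA was sequenced from dorsal skin at an age of 45 days in 3 wild-type libraries and 3 libraries of a yellow mutant, a colour form whose causal allele the labels do not give. The comparison asks which RNAs differ between skins of different colour. Whether each library is from its own fish is not stated in the labels, so errors describe the spread among these libraries, part of which may be technical. Total counts ranged from 15059101 to 19031878 per library, and the libraries correlated at 0.9813 to 0.9846 within a phenotype and at 0.9251 to 0.9367 between phenotypes. Replicate 1 of the yellow mutant stood farthest from the other libraries of its phenotype, with a chi-square per degree of freedom of 16.3 and 23.1 against replicates 2 and 3, which differed from each other by 9.15. Levels are CPM, counts scaled to library size, with TMM factors that correct for uneven composition. Differences between phenotypes are given as the log2 fold change, yellow mutant over wild type, with its standard error (SE). The median of this value over all tested genes was -0.0029 with TMM factors and 0.20 with library totals alone, so each difference is relative to the TMM scaling.

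Of the 51 loci, 37 had enough counts to enter the fit of 30691 genes and 14 did not. At an adjusted p under 0.05 (edgeR quasi-likelihood test, Benjamini-Hochberg), 17 of the 37 were called higher in the yellow mutant, 3 lower and 17 neither, where 21.7% of all tested genes were called higher and 23.1% lower. Because the loci were proposed from this contrast, nothing is read from these shares. At least 2-fold higher were 12 loci, against 5.03% of all tested genes, and at least 2-fold lower were 0, against 6.84%. All yellow mutant libraries lay above all wild-type libraries at 18 loci (26.8% of all tested genes) and below them at 5 (27.6%), and the phenotypes overlapped at 14. The median log2 fold change was 0.30, with a range from -0.80 to 4.41. Without the 5 lead loci, 12 of 32 tested loci were called higher, 3 were called lower and 7 were at least 2-fold higher. In whole skin, fewer cells of a type and less RNA per cell cannot be told apart.

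**Figure D1:**
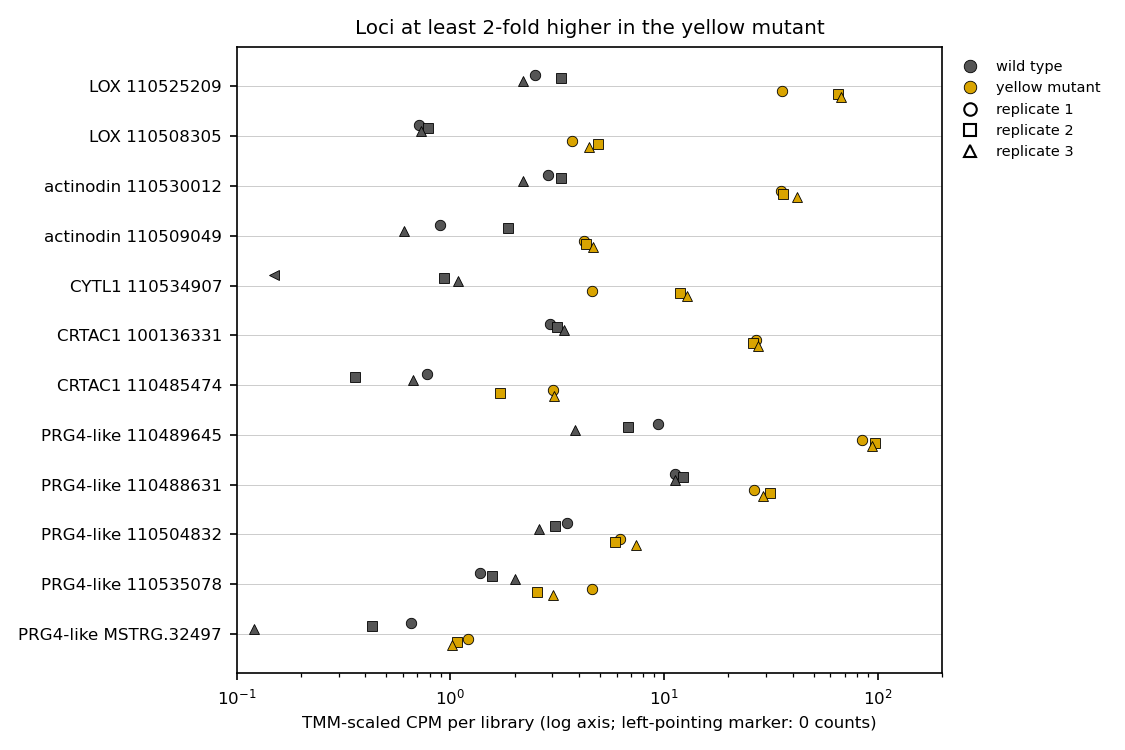
Scaled CPM (log axis) in each of the 6 libraries at the 12 loci that were at least 2-fold higher in the yellow mutant, with grey for wild type, yellow for the yellow mutant and marker shape for the replicate. At each of these loci all yellow mutant libraries lie above all wild-type libraries. Replicate 1 of the yellow mutant lies farthest to the left of replicates 2 and 3 at the CYTL1 locus ncbi_110534907 and the LOX locus ncbi_110525209. By a smaller step it is also the lowest yellow mutant library at the LOX locus ncbi_110508305 and at both actinodin loci. The same holds at the proteoglycan 4-like loci ncbi_110489645 and ncbi_110488631.

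The LOX loci carry the symbol of the founding enzyme of the family, protein-lysine 6-oxidase. Names alone tie them to it, since no sequence was compared. These loci differed in level and in difference between the phenotypes. The widest difference was at Lox (ncbi_110525209). It stood at 2.50, 3.29 and 2.18 CPM in wild-type replicates 1 to 3 and at 35.7, 65.1 and 67.0 CPM in the yellow mutant. The phenotypes did not overlap, and replicate 1 of the yellow mutant held 54.1% of the mean of replicates 2 and 3. The log2 fold change was 4.41 (SE 0.25), or 21.3-fold, from 2.66 ± 0.571 to 56.0 ± 17.5 CPM (SD, n = 3). Only 0.306% of all tested genes had a log2 fold change above 3.

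A second Lox locus, ncbi_110508305, showed the same direction at a lower level. Its wild-type libraries held 0.716, 0.787 and 0.726 CPM and its yellow mutant libraries 3.70, 4.89 and 4.45 CPM. These values rested on 12, 11 and 12 wild-type counts and on 64, 100 and 87 counts of the yellow mutant. The log2 fold change was 2.55 (SE 0.25). The remaining pair of well-counted LOX loci carried most of the LOX RNA and differed little. Lox ncbi_110509899 held 160, 143 and 157 CPM in the wild type and 223, 182 and 195 CPM in the yellow mutant, a log2 fold change of 0.38 (SE 0.091). Locus ncbi_100189621, named loxa in the RefSeq gene table, held 56.1, 49.4 and 60.3 CPM against 74.6, 54.3 and 63.9 CPM. Its phenotypes overlapped, with a log2 fold change of 0.21 (SE 0.11). The other LOX loci, ncbi_110530787 and ncbi_110499862, were too sparse for the fit, with 45 and 24 counts over all libraries.

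FPKM, fragments scaled to gene length and library size by the authors, allow levels to be set beside each other between loci of different length. No TMM factors were applied to them here. The median log2 fold change over all tested genes was 0.15 on log2(FPKM + 0.5). Differences in FPKM between the phenotypes therefore lean toward the yellow mutant, compared with those in scaled CPM. Summed over the 6 LOX loci, FPKM was 106 ± 8.03 in the wild type, against 176 ± 11.7 in the yellow mutant, a ratio of 1.65. The share of ncbi_110525209 in that sum was 0.970 ± 0.284% in the wild type, against 14.2 ± 5.06% in the yellow mutant. The shares of ncbi_110509899 (50.6% and 45.8%) and ncbi_100189621 (48.0% and 38.6%) were lower in the yellow mutant, although the mean CPM of neither locus was lower there.

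The LOX-like enzymes share the catalytic domain of LOX but differ in the stretch ahead of it. Of their 11 loci, none (0) reached a 2-fold difference in either direction. LOXL1, known in mice for elastic fibre upkeep, was called lower at 1 of its 2 loci. ncbi_110526332 held 55.8, 53.2 and 51.9 CPM in the wild type and 50, 37.2 and 42.1 CPM in the yellow mutant, without overlap (log2 fold change -0.32, SE 0.099, and -0.12 with library totals). ncbi_110506449 held 22.8, 24.8 and 21.4 CPM against 19.2, 19.5 and 20.6 CPM, also without overlap, but was not called (-0.21, SE 0.087, and -0.02 with library totals).

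LOXL2, an enzyme that acts on the collagen IV of basement membranes, was nearly level at 3 of its 4 loci. The log2 fold changes there were 0.01 (SE 0.074) at ncbi_110536278, -0.07 (SE 0.12) at ncbi_110494120 and -0.05 (SE 0.077) at ncbi_110525894. Only ncbi_110528290 separated the phenotypes, with 11.4, 11.7 and 13.1 CPM in the wild type and 15.7, 14.3 and 15.8 CPM in the yellow mutant (0.34, SE 0.10). The LOXL3 pair went apart. ncbi_110504281 held 18.7, 15.7 and 18.1 CPM in the wild type and 11.7, 14.2 and 13.4 CPM in the yellow mutant (-0.42, SE 0.11), whereas ncbi_110498419 overlapped and had a log2 fold change of 0.20 (SE 0.09).

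At the LOXL4 loci replicate 1 of the yellow mutant lay apart from replicates 2 and 3. The most abundant of them, ncbi_110502660, held 55.8, 68.5 and 55.7 CPM in the wild type and 45.7, 91.6 and 84.1 CPM in the yellow mutant. Replicate 1 lay below every wild-type library and replicates 2 and 3 above them all. The log2 fold change was 0.30 (SE 0.19), and 0.56 without that replicate. At ncbi_110532845 it was -0.09 (SE 0.17) with all libraries and 0.11 without replicate 1. At ncbi_110531205 it was -0.03 (SE 0.17) and 0.17. Replicate 1 held 52.1%, 60.8% and 61.7% of the mean of replicates 2 and 3 at these loci.

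**Figure D2:**
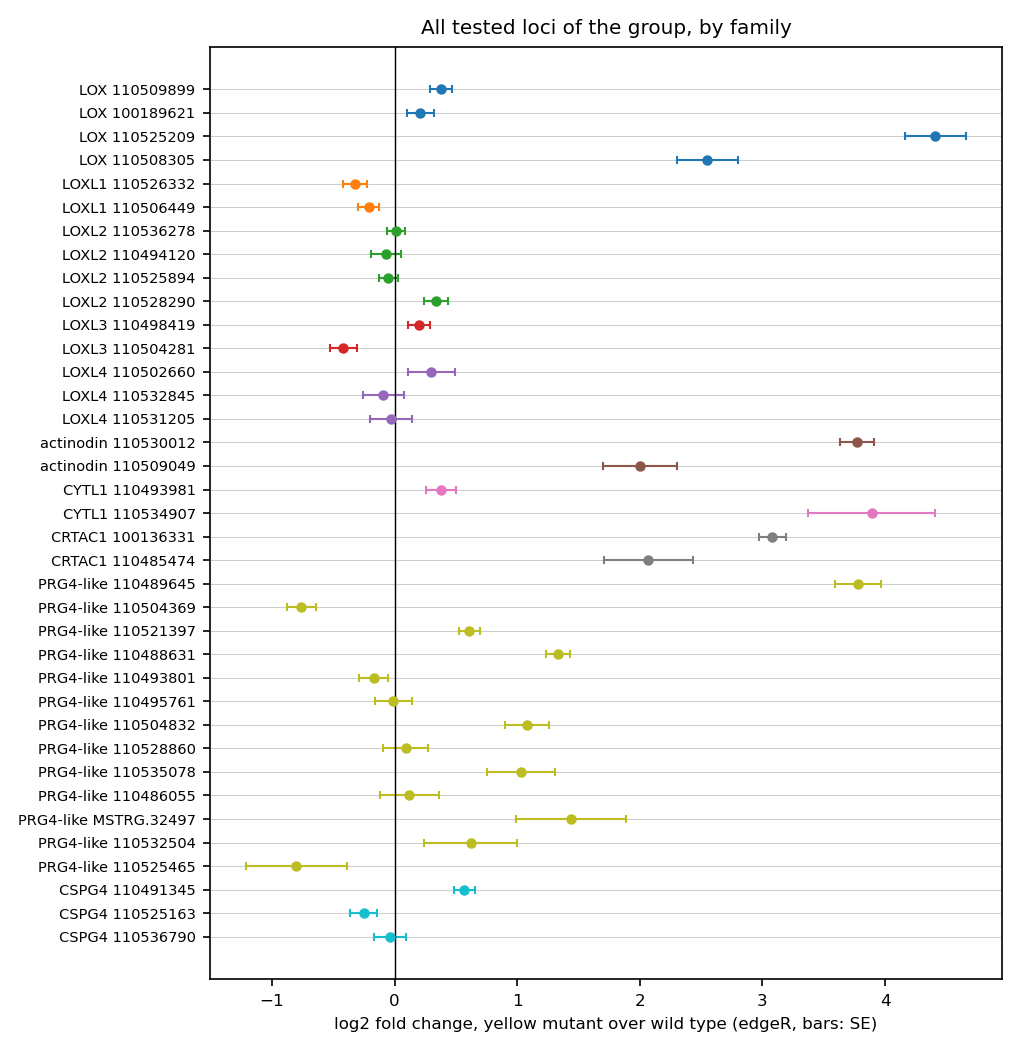
Log2 fold change (yellow mutant over wild type) at each of the 37 tested loci, grouped by family, with bars for the SE derived from the edgeR F statistic. The LOXL loci lie close to 0, from -0.42 to 0.34, while the lead LOX, actinodin, CYTL1, CRTAC1 and proteoglycan 4-like loci lie between 3.08 and 4.41.

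Both actinodin loci, which the table names actinodin without a gene symbol, were higher in the yellow mutant. ncbi_110530012 held 2.86, 3.29 and 2.18 CPM in the wild type and 35.3, 36.0 and 42.0 CPM in the yellow mutant. Every yellow mutant library stood more than 10 times above the highest wild-type library, and replicate 1 lay near the others, at 90.5% of their mean. The log2 fold change was 3.77 (SE 0.14), or 13.7-fold. The second locus, ncbi_110509049, held 0.895, 1.86 and 0.605 CPM against 4.22, 4.31 and 4.66 CPM. Its wild-type libraries spread more than its yellow mutant libraries, and the log2 fold change was 2.0 (SE 0.30). Summed actinodin FPKM was 1.61 ± 0.491 in the wild type, against 20.1 ± 1.99 in the yellow mutant, a ratio of 12.5, and ncbi_110530012 made up 73.3% and 89.8% of it.

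CYTL1, a small secreted protein that promotes cartilage formation in mouse cell culture, was counted at 3 loci. ncbi_110534907 held 0, 0.930 and 1.09 CPM in the wild type and 4.62, 11.9 and 12.8 CPM in the yellow mutant, from 0, 13 and 18 counts against 80, 243 and 250 counts. The phenotypes did not overlap, but wild-type replicate 1 had no count and replicate 1 of the yellow mutant held 37.5% of the mean of the others. The log2 fold change was 3.89 (SE 0.52), or 14.8-fold, and the fold was 9.63 without wild-type replicate 1 and 22.7 without wild-type replicate 3. ncbi_110493981 held 9.78, 8.87 and 7.81 CPM in the wild type and 12.0, 11.1 and 11.5 CPM in the yellow mutant (0.38, SE 0.12). The third, ncbi_110528474, had 11 wild-type counts and 3 yellow mutant counts, which is a scaled ratio of 0.225 with an exact 95% interval for counting error of 0.0403 to 0.852.

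The order of the CYTL1 loci differed between the phenotypes. ncbi_110534907 made up 0%, 25% and 30.7% of summed CYTL1 FPKM in the wild-type libraries, against 55.5%, 77.4% and 78.1% in those of the yellow mutant. Summed FPKM was 7.21 ± 0.551 and 31.9 ± 10.7.

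CRTAC1, a calcium-binding protein of the cartilage matrix, was higher at both of its tested loci. ncbi_100136331 held 2.92, 3.15 and 3.39 CPM in the wild type and 26.8, 26.1 and 27.5 CPM in the yellow mutant. The spread within each phenotype was narrow, at 3.15 ± 0.234 and 26.8 ± 0.705 CPM, and the log2 fold change was 3.08 (SE 0.11), or 8.48-fold. ncbi_110485474 held 0.775, 0.358 and 0.666 CPM against 3.01, 1.71 and 3.07 CPM (2.07, SE 0.36). Here the replicates of the yellow mutant lay in another order than at the LOXL4 loci, with replicate 2 lowest. The third locus, ncbi_110503109, named crtac1b in the RefSeq gene table, had 8 counts over all libraries.

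Proteoglycan 4-like loci formed the most numerous family, and 13 of its 20 loci were tested. Most carry no symbol, 1 carries KIAA1211L and 1 carries ZP4, so the product name is all that ties several of them to lubricin. ncbi_110489645 held 9.36, 6.8 and 3.81 CPM in the wild type and 84.3, 96.5 and 94.2 CPM in the yellow mutant. Its wild-type libraries differed by more than 2-fold among themselves, yet all lay far below the yellow mutant libraries. The log2 fold change was 3.78 (SE 0.19), or 13.8-fold. Its share of summed proteoglycan 4-like FPKM was 8.04 ± 3.32% in the wild type, against 49.1 ± 1.96% in the yellow mutant, while the sum itself went from 32.7 ± 1.19 to 84.0 ± 3.31.

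The family did not move as one. ncbi_110504369, which made up 32.6% of the summed FPKM in the wild type but 8.57% in the yellow mutant, held 35.3, 38.4 and 49.5 CPM against 21.4, 24.9 and 26.3 CPM. Its phenotypes did not overlap and its log2 fold change was -0.76 (SE 0.12). In the other direction, ncbi_110488631 held 11.2, 12.3 and 11.2 CPM against 26.3, 31.3 and 29.0 CPM (1.33, SE 0.097). ncbi_110521397 held 20.6, 18.3 and 20.2 CPM against 32.3, 29.5 and 28.7 CPM (0.61, SE 0.086). Both separated the phenotypes by far more than the spread of their libraries.

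At lower levels, ncbi_110504832 held 3.52, 3.08 and 2.60 CPM against 6.24, 5.92 and 7.37 CPM (1.08, SE 0.18). ncbi_110535078 held 1.37, 1.57 and 2.0 CPM against 4.62, 2.54 and 3.02 CPM (1.03, SE 0.28). MSTRG.32497, a locus without an NCBI number, held 0.656, 0.429 and 0.121 CPM against 1.21, 1.08 and 1.02 CPM (1.44, SE 0.45). The fold of the last rested on few counts, at 2.71 with all libraries, 4.08 without wild-type replicate 1 and 1.99 without wild-type replicate 3. The other tested loci of the family showed small or uncertain differences. Their log2 fold changes were -0.17 (SE 0.12) at ncbi_110493801, -0.01 (SE 0.15) at ncbi_110495761, 0.09 (SE 0.18) at ncbi_110528860 and 0.12 (SE 0.24) at ncbi_110486055. The sparse loci ncbi_110532504 and ncbi_110525465 stood at 0.62 (SE 0.38) and -0.80 (SE 0.41).

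The loci that carry the symbol Prg4 itself were close to the limit of detection. Together ncbi_110524571 and ncbi_100135939 held 30 counts in all 6 libraries. At ncbi_100135939, 9 wild-type counts stood against 1 yellow mutant count, with a scaled ratio of 0.0917 (exact 95% interval 0.00209 to 0.662). ncbi_110535847 had 16 counts and a scaled ratio of 3.58 (0.983 to 19.6), and ncbi_110504689 had 10 counts. The remaining 3 proteoglycan 4-like loci had fewer than 10 counts each.

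CSPG4, which marks pericytes and glial precursors in mammals, is a different protein from lubricin. ncbi_110491345 held 28.0, 29.8 and 27.1 CPM in the wild type and 42.4, 45.6 and 38.0 CPM in the yellow mutant (0.57, SE 0.087). The other tested CSPG4 loci had log2 fold changes of -0.25 (SE 0.11) at ncbi_110525163 and -0.04 (SE 0.13) at ncbi_110536790. MSTRG.17921 had 29 counts, another locus had 6, and 1 had none in any library.

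**Figure D3:**
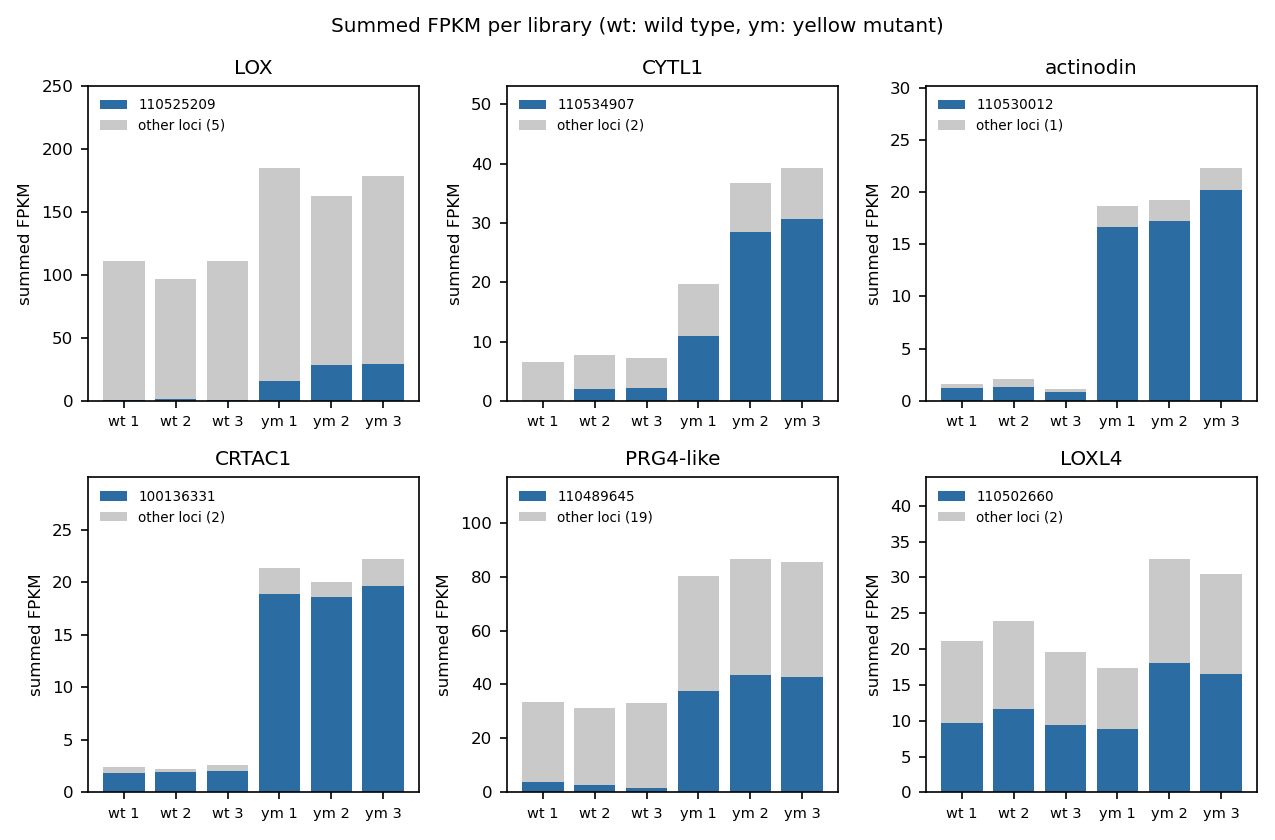
Summed FPKM per library for the loci of 6 families, with the leading locus of each in blue and the other loci in grey. The blue part makes up 0.970% of LOX in the wild type but 14.2% in the yellow mutant, and 8.04% and 49.1% of the proteoglycan 4-like sum.

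Ordered by mean FPKM, the LOX loci ncbi_110509899 (53.8) and ncbi_100189621 (51.0) led in the wild type, and their libraries overlapped. They were followed by the LOXL2 locus ncbi_110536278 (19.3), the LOXL3 locus ncbi_110498419 (16.9) and the LOXL2 locus ncbi_110494120 (15), each of which overlapped its neighbours among these 3. In the yellow mutant the same LOX pair led, at 80.5 and 68.1 FPKM, again with overlap. The proteoglycan 4-like locus ncbi_110489645 came next at 41.3 FPKM, apart from both neighbours in the order. Lox ncbi_110525209 (24.6) and CYTL1 ncbi_110534907 (23.4) followed and overlapped. The LOXL3 locus ncbi_110498419 and the LOXL2 locus ncbi_110536278 came next, at 22.2 FPKM each. The libraries of Lox (15.54 to 29.61) and of CYTL1 (10.93 to 30.73) spanned those of both. CRTAC1 ncbi_100136331 (19) and the actinodin ncbi_110530012 (18.0) each overlapped another proteoglycan 4-like locus between them, ncbi_110521397 (18.6). In the wild type the 5 lead loci stood between 1.02 and 2.63 FPKM.

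The lead loci differed in where replicate 1 of the yellow mutant stood against replicates 2 and 3. Among all 37 tested members, this replicate was the lowest yellow mutant library at 16, against 33.1% of all tested genes. Replicate 1 was much lower than replicates 2 and 3 at Lox ncbi_110525209 and CYTL1 ncbi_110534907. It was close to them at the actinodins (90.5% and 94.2% of their mean), CRTAC1 ncbi_100136331 (100%) and the proteoglycan 4-like locus (88.4%). At the abundant LOX loci it was above them, at 118% and 126%. Of the 34 tested loci with a mean of at least 1 CPM, 5 stood at 70% or less, namely these Lox and CYTL1 loci and the 3 LOXL4 loci. The same was true of 4.65% of all genes at that level. The part of this library in these values was not tested beyond leaving it out, which gave a fold of 18.7 for CYTL1 ncbi_110534907.

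**Figure D4:**
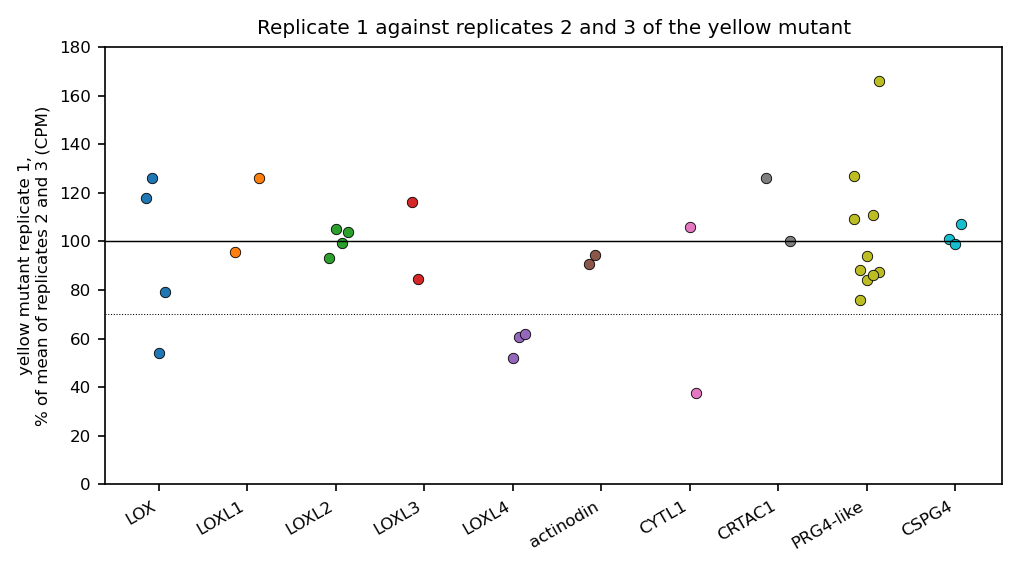
Level of replicate 1 of the yellow mutant as a percentage of the mean of replicates 2 and 3 (CPM), for the 34 tested loci with a mean of at least 1 CPM, by family. The solid line marks 100% and the dotted line 70%. The 3 LOXL4 loci, the lead Lox locus and the lead CYTL1 locus lie under the dotted line, the CYTL1 locus lowest at 37.5%.

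The 5 genes whose log2 CPM over the 6 libraries was most like that of Lox ncbi_110525209 were Usp5 (ncbi_110489446, Pearson r 0.9989), SNRPA1 (ncbi_110506910, 0.9986), NAT10 (ncbi_110525389, 0.9985), itga5 (ncbi_110493946, 0.9981) and SH3GLB1 (ncbi_110535472, 0.998). With 6 libraries in 2 groups, 197 of 28213 genes reached an r above 0.99. The log2 fold changes of the 5 named genes ran from 0.28 for SH3GLB1 to 1.0 for NAT10, well under that of Lox.

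Around these members, 4 companion lists were counted, matched by symbol or product name. Collagen modification and processing covers the enzymes and chaperones that act on collagen before and besides crosslinking. Of its 55 tested loci 18 rose and 9 fell, with a median log2 fold change of 0.10, against 21.7% and 23.1% and a median of -0.0029 over all tested genes. With library totals 28 rose and 2 fell, and 5 fell without wild-type replicate 1. SERPINH1, the collagen chaperone HSP47, rose at ncbi_110504077 from 168 ± 4.61 to 355 ± 39.0 CPM (1.08, SE 0.091, edgeR adjusted p = 8.62e-07). The other loci with the widest differences in this list were ncbi_110493928 (-1.14, SE 0.35, edgeR adjusted p = 0.0165) and Neto1 ncbi_110535455 (-1.10, SE 0.36, edgeR adjusted p = 0.023). They are neuropilin and tolloid-like membrane proteins that the name text brought in, and both missed the threshold without wild-type replicate 1 and under some other settings, at adjusted p up to 0.0752 and 0.0934. With whole product names, 17 of 47 loci rose and 6 fell.

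Cartilage matrix and chondrocyte regulators had 14 of 71 tested loci higher and 15 lower, near the shares of all tested genes (21.7% and 23.1%), and a median of -0.11, but 23 higher, 8 lower and a median of 0.09 with library totals. COL9A1 ncbi_110496835, a chain of the collagen IX that coats cartilage fibrils, rose from 6.27 ± 3.62 to 100 ± 10.6 CPM (3.98, SE 0.23, edgeR adjusted p = 4.44e-08). ncbi_110488196, whose product name is collagen IX alpha 3, rose from 6.82 ± 0.705 to 52.2 ± 8.46 CPM (2.93, SE 0.13, edgeR adjusted p = 5.04e-09). Without wild-type replicate 1 the log2 fold change of the former was 4.57. Collagen IX loci did not all rise. Of the 5 tested loci matched as col9a1, 2 were called higher and 1 lower. Of the 3 matched as col9a2, 1 was called higher and 1 lower. The 1 tested locus matched as col9a3 is not ncbi_110488196, despite the product name of the latter, and was not called. MSTRG.17506, named for aggrecan, the main proteoglycan of cartilage, had 2 wild-type and 59 yellow mutant counts, a ratio of 24.3 (exact 95% interval 6.45 to 206). The 6 loci matched as aggrecan held 347 counts in all, and of the 2 tested only 1 was called. Loci of the COL11A1 chain had 7 of 19 lower and 0 higher, though 3 lower and 2 higher with library totals. All 3 tested loci of the link protein hapln1 rose, and at least 2 did when any 1 library was left out. Other genes of the list differed in direction. Called lower were 2 of 2 tested epyc loci and 1 of 4 cilp loci, and called higher were 2 of 2 matn4 loci and 1 of 9 col2a1 loci.

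Fibril and elastic fibre partners had 12 of 78 tested loci higher and 22 lower, with a median of -0.12, but 19 higher, 13 lower and a median of 0.075 with library totals. An elastin-like locus, ncbi_110491765, rose from 0.605 ± 0.425 to 2.14 ± 0.159 CPM (1.79, SE 0.39, edgeR adjusted p = 0.0023), and reached 2.53 on the log2 scale without wild-type replicate 1. Elastin as a whole did not follow it, since of the 3 tested loci matched as elastin 1 was called higher and 2 lower. Lrfn4 ncbi_110500905 (-3.23, SE 0.37, edgeR adjusted p = 1.26e-05) and IGFN1 ncbi_110494724 (1.65, SE 0.36, edgeR adjusted p = 0.00213) were matched only through the fibronectin domain in their names. With whole product names, 10 of 47 loci rose and 10 fell.

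The fin fold and fin bud list had 11 of 36 tested loci higher and 6 lower, or 2 lower without yellow mutant replicate 3, and its median was -0.003 on the log2 scale. With library totals 15 were higher, 4 lower and the median 0.196. The homeobox gene msxc (ncbi_110493548), of a family expressed in fin folds and regenerating fins of zebrafish, rose from 2.07 ± 0.382 to 7.47 ± 0.886 CPM (1.84, SE 0.19, edgeR adjusted p = 4.51e-06). It is among the 3 tested loci matched as msx1, all of which rose. Called lower were 2 of 2 tested frem1 loci, 2 of 4 fras1 loci and 1 of 2 fgf10 loci, and 0 loci of these genes were called higher. Besides msx1, called higher were 3 of 5 hmcn1 loci and 1 of 2 loci each of hmcn2, sp9 and dlx6. The same was true of the 1 tested locus each of hoxa13 and fgf8, and 0 loci of these genes were called lower. A hemicentin-1-like locus (ncbi_110537581), named for a basement membrane protein of fin folds, rose from 2.85 ± 0.132 to 10.4 ± 1.93 CPM (1.85, SE 0.17, edgeR adjusted p = 1.87e-06). LMX1B ncbi_110523135, a dorsal limb regulator in mice, fell from 1.48 ± 0.776 to 0.566 ± 0.197 CPM (-1.41, SE 0.44, edgeR adjusted p = 0.0195), and missed the threshold without wild-type replicate 1 or 3 or yellow mutant replicate 2 or 3, at adjusted p up to 0.12.

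**Figure D5:**
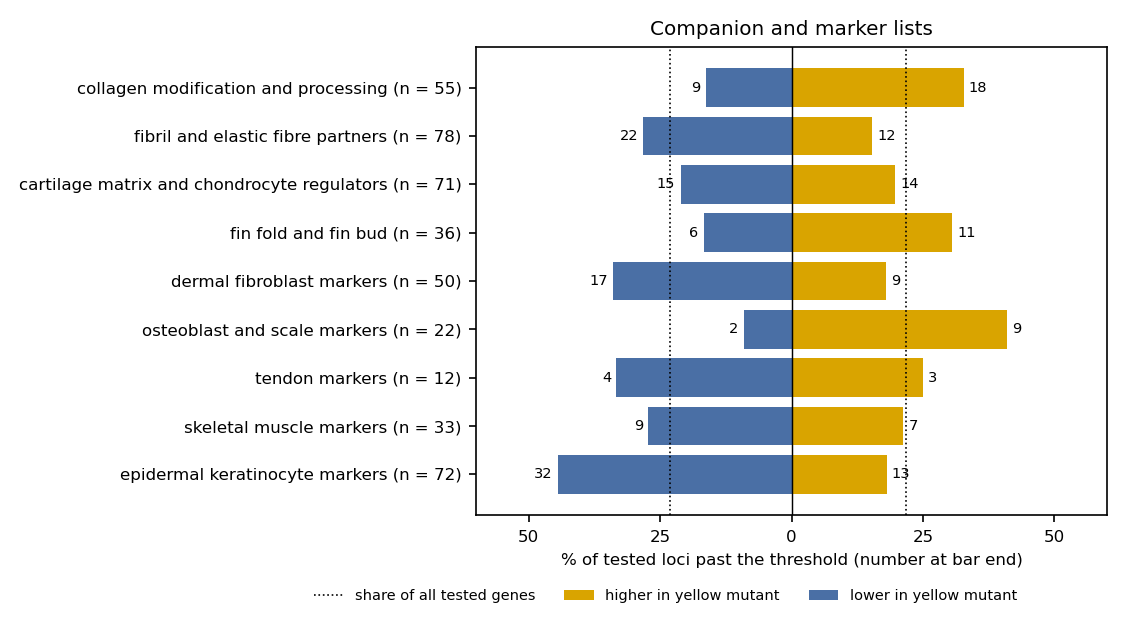
Percentage of tested loci called higher (yellow bars) or lower (blue bars) in the yellow mutant for the 4 companion lists and the 5 marker lists, with the number of loci at each bar end and dotted lines for all tested genes (21.7% higher, 23.1% lower). The osteoblast and scale markers have the longest bar on the higher side (9 of 22 loci) and the keratinocyte markers the longest on the lower side (32 of 72).

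Markers of other cell types that a skin sample can hold were summed beside these loci. Summed epidermal keratinocyte markers stood at 35525 to 38539 CPM in the wild type and at 13766 to 15409 CPM in the yellow mutant, with 13 of 72 tested loci higher and 32 lower, and with 1 of 33 higher and 28 lower when whole product names were matched. Most counts of this list over all libraries were of krt13 (2229540). Dermal fibroblast markers stood at 62814 to 71242 and 50922 to 54939 CPM (9 of 50 higher, 17 lower, and 5 higher without wild-type replicate 3). This sum was mostly collagen I, with 3598618 counts of col1a1 (4 of 10 loci lower, 0 higher) and 2134047 of col1a2 (2 of 6 lower, 0 higher). In the other direction, 4 of 8 twist2 loci were called higher and 1 lower, and 1 of 3 pdgfra loci was higher and 0 lower. Osteoblast and scale markers stood at 11005 to 11338 and 9635 to 12834 CPM, with 9 of 22 loci higher and 2 lower, or 4 lower without yellow mutant replicate 1 and 1 without replicate 2. Most of their counts were of sparc (628286) and col10a1 (538351). Skeletal muscle markers stood at 23340 to 28880 and 17129 to 25834 CPM (7 of 33 higher, 9 lower). Tendon markers stood at 231 to 322 and 207 to 228 CPM. Of the tendon loci 3 of 12 rose and 4 fell, or 1 and 2 without wild-type replicate 1 or without yellow mutant replicate 1, and 2 fell without yellow mutant replicate 2. With all libraries the 4 that fell were the egr1 loci, while 2 of 2 tnmd loci and 1 of 4 scx loci rose. No marker gene found in the table was at 0 in all libraries, and krt5 was not found. With library totals the counts higher and lower were 20 and 27 for keratinocyte, 14 and 9 for fibroblast, 13 and 0 for osteoblast and scale, 9 and 6 for muscle, and 3 and 2 for tendon markers. The part of cell composition in the differences of the 51 loci was not tested.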

How the data were processed

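Trizol RNA of flash-frozen dorsal skin was sequenced as Illumina libraries, per the labels' protocols. Bowtie2 2.2.8 and TopHat2 2.1.1 were used, per the submitters' processing notes. Not given in the sources used here are the build, the annotation, the counting tool, its strand use and its handling of reads that duplicated loci share, so near-identical copies may share reads. The deposited table holds raw counts and the authors' FPKM per locus and library, per the file headers. Further columns give, by the authors, the mean FPKM of each phenotype (0 replaced by 0.001), a log2 fold change, a p-value and an FDR, whose test is not given.

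Members and lists were chosen with earlier results of these data known. Counts were filtered with filterByExpr, scaled with TMM and fitted without covariates by glmQLFit and glmQLFTest (edgeR 4.0.16, R 4.3.3), with Benjamini-Hochberg adjustment over 30691 genes. The SE was derived as the absolute log2 fold change divided by the square root of the quasi-likelihood F statistic. Depth was 15059101 to 19031878 counts per library. Named were members with at least 10 counts, the 3 loci of each companion list with the widest difference past the threshold and a mean of at least 1 CPM in 1 phenotype, and the 5 genes most like Lox (log2 CPM, prior count 2). Other list loci named or counted by gene, such as the COL11A1, hapln1 and msx1 loci, were picked after their values were seen. Ratios of 1 to 3 counts carry exact (Clopper-Pearson) 95% intervals for counting error only. The RefSeq gene table of USDA_OmykA_1.1 held 35457 of the NCBI gene numbers and was used for names and gene neighbours only. Alternatives were library totals, DESeq2 1.42.0, other filters, limma 3.58.1 on log2(FPKM + 0.5) and log2(FPKM + 0.1), a replicate block, leaving out each library, and stricter list matches. The fit was also run on simulated data in which few genes were changed, evenly up and down. That setting differs from these data, so it cannot test the choice of scaling.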

Additional observations from a re-analysis of the deposited data

How the results depend on the processing

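Over 13 other settings, 28 of the 37 tested members kept the sign of their log2 fold change and 9 changed it. All 12 loci that were at least 2-fold higher kept their sign, and 10 to 12 loci were at least 2-fold higher when 1 library was left out. Over all tested genes, 6658 were higher and 7079 lower, against 10805 and 4544 with library totals, 10357 and 4269 with limma at a pseudocount of 0.5, and 10308 and 4245 at 0.1. Leaving out 1 library gave 5602 to 6015 higher and 6072 to 6582 lower. Collagen modification had 28 higher and 2 lower with library totals, 4 lower with DESeq2, 3 lower with limma at either pseudocount, 11 higher where symbol and product name both matched, and 5 to 8 lower with 1 library left out. Fibril partners had 19 higher and 13 lower with library totals, 12 lower with limma at either pseudocount, 6 lower where symbol and name both matched, and 10 lower with whole product names, a match added after seeing the data. Cartilage genes had 23 higher and 8 lower with library totals, 7 lower with limma at either pseudocount, and 9 higher and 7 lower where both matched. Fin fold genes had 4 higher where both matched, 1 and 2 lower with limma at 0.5 and 0.1, and 2 to 7 lower with 1 library left out. The cause was not tested.

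Any pairing of the libraries by replicate number was weak. Deviations of same-numbered libraries correlated at 0.08, 0.0137 and 0.0557, although each library correlated best with its own number. With the replicate number as a block, 6698 genes were higher and 7170 lower, and 12 members were at least 2-fold higher. The 14 members with too few counts did not enter the fit, and whether depth or low expression left them there was not tested. No sequence of the members was used here.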

Other observations

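Gene order in the RefSeq assembly, within 3 genes on each side, placed some of the loci beside recurring partners. All 4 loci with an apolipoprotein D product name, a lipid-binding lipocalin, lie beside members. They flank both actinodin loci and 1 of the 15 proteoglycan 4-like loci with listed neighbours, the lead locus ncbi_110489645. Both actinodin loci also have a SAMD7 locus within 3 genes, so their surroundings are alike. Of the apolipoprotein D loci, ncbi_110529118 was almost silent, at 0.0404 CPM in the wild type and 0.0912 CPM in the yellow mutant. So was ncbi_110509046, at 0 and 0.0326 CPM. ncbi_110509047, next to the actinodin ncbi_110509049, rose from 188 to 311 CPM (log2 fold change 0.73, edgeR adjusted p = 2.19e-05). ncbi_110490923, near the proteoglycan 4-like locus, fell from 93.7 to 76.4 CPM (-0.29, edgeR adjusted p = 0.0358), against a 13.8-fold higher level of that locus.

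Both tested CRTAC1 loci lie near a locus named golgin subfamily A member 7B-like, and these went the other way. ncbi_110485470 had 37, 50 and 54 wild-type counts against 2, 7 and 2 of the yellow mutant (-3.92, SE 0.42, edgeR adjusted p = 7.13e-06). ncbi_110485471 had 40, 41 and 51 counts against 1, 0 and 0, a scaled ratio of wild type over yellow mutant of 160 (exact 95% interval 28.2 to 6365). ncbi_110502661, next to the untested CRTAC1 locus ncbi_110503109, had 0 wild-type counts and 5 of the yellow mutant. Near-identical copies may share reads, so ncbi_110485470 and ncbi_110485471 may not be separate observations. This was not tested.

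The CYTL1 loci ncbi_110493981 and ncbi_110528474 each adjoin a homeobox locus of the Msx group. These neighbours rose, ncbi_110493982 with a log2 fold change of 1.07 (edgeR adjusted p = 0.000193) and ncbi_110528473 with 1.02 (edgeR adjusted p = 0.0151). The former carries the symbol Msx1 and is already counted among the msx1 loci of the fin fold list. The lead Lox locus adjoins ddr2l, a collagen receptor, which fell by 0.34 on the log2 scale (edgeR adjusted p = 0.018). These neighbours were picked after their values were seen.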
